A study of Mus musculus with 2 samples.

Results

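Dividing monocyte precursors were taken from the bone marrow cells of 2 mouse libraries and compared between them. A barcode was kept with at least 1000 unique molecular identifiers (UMIs, 1 for each captured RNA molecule) and under 10% of them from mitochondrial genes. Members were chosen by measured UMIs of the following genes. A kept barcode was a member when F13a1, Fn1, Ccr2, Ms4a6c and Csf1r gave at least 4 UMIs together, and Mki67 and Top2a at least 2. It also had under 5% of its UMIs from S100a8 and S100a9, at most 2 from the 3 C1q genes, at most 1 from Ace and Adgre4, 0 from Siglech and at most 5 from H2-Aa, H2-Ab1 and H2-Eb1. The rule found 2053 members, 909 of them control and 1144 MYC cells, among 31569 barcodes, of which 23794 were kept. Mice of both groups carry 1 Mx1-Cre allele, a recombinase under an interferon-inducible promoter. The control genotype was Mx1Cre+/-;Rosa26+/+, and the MYC genotype was Mx1Cre+/-;Rosa26LSL-MYC/LSL-MYC, with a MYC transgene behind a stop cassette at both Rosa26 alleles. The study asked how gene expression in marrow differs once MYC is overexpressed from the stem cell onward. Each group was 1 library, and the labels used here do not give the number, sex or age of the animals, the time of induction, or whether both libraries were made in 1 run. Genotype and library preparation therefore cannot be told apart. No test between groups was possible, and the intervals given are 95% intervals of counting error alone.

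Monocytes arise in marrow from granulocyte-monocyte progenitors and monocyte-dendritic progenitors. The progenitors pass through a dividing stage at which they gain Ly6C, the receptor CCR2 that lets them leave the marrow, and the receptor for the growth factor CSF1. IRF8 and KLF4 are transcription factors that direct this path, while the primary granule proteins myeloperoxidase, neutrophil elastase, proteinase 3 and cathepsin G are made early and their transcripts are lost as the cells mature. Monocyte precursors also respond strongly to interferon.

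The members' levels of the genes behind their label are given first as a description. Levels are given in CPM, the UMIs of a gene summed over the members of a library per 1000000 of all their UMIs. F13a1, the A subunit of coagulation factor XIII and a monocyte marker, stood at 786 CPM in control members and 572 CPM in MYC members, against 5.12 and 7.45 CPM in B cells of the same libraries. Csf1r, the CSF1 receptor, stood at 121 and 100 CPM, and Ms4a6c at 660 and 690 CPM. Mki67, the Ki-67 protein of cycling cells, stood at 1046 and 798 CPM, and the DNA topoisomerase Top2a at 770 and 725 CPM. These genes chose the cells, and B cells were limited to at most 1 UMI of the same monocyte genes, so both selections fix the contrast and it shows nothing about the label. Ly6c2, which was not part of the rule and encodes Ly6C, stood at 1832 CPM in control members and 1490 CPM in MYC members, with a UMI in 94.9% of each. In B cells it stood at 158 and 1533 CPM, with a UMI in 32.4% and 44.6% of cells, so by summed level it did not set members apart from B cells in the MYC library. Its median over single cells was 18.9 and 14.02 UMIs per 10000, with quartiles of 11.2 and 25.8 for control and 8.36 and 19.7 for MYC cells, so the cells of both libraries overlapped widely.

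The rule cut through continuous ranges. Exactly 2 Mki67 and Top2a UMIs, the fewest allowed, were found in 110 control and 91 MYC members, and 169 and 200 cells that met all other conditions had 1 such UMI and stayed out. The minimum of 4 monocyte UMIs was met exactly by 31 and 35 members, with 46 and 57 barcodes just outside at 3. Of barcodes that missed only the S100 limit, 10 and 8 lay at 5 to 6%, and 19 and 8 members lay at 4 to 5%. Members held a median of 15383 UMIs and 3902 genes (control) and of 16472.5 UMIs and 3865.5 genes (MYC), with median mitochondrial shares of 4.72% and 3.98%. The libraries shared 97 barcodes, but no barcode was a member in both.

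Some members also held transcripts of other lineages. Haemoglobin made up at least 1% of UMIs in 34 control and 27 MYC members. T cell receptor complex transcripts (at least 2 UMIs) were found in 21 and 3. S100a8 and S100a9 made up at least 1% in 71 and 85, and the basophil and mast cell proteases Prss34, Mcpt8 and Cpa3 gave at least 10 UMIs in 21 and 39. At least 1 of 5 signs, which were these and B lineage transcripts, was seen in 146 control members (16.1%, 13.7 to 18.6) and in 149 MYC members (13.02%, 11.1 to 15.1), and 763 and 995 members had none. Free RNA was present as well. S100a8 UMIs were found in 100% of members of both libraries, and in 99.8% and 100% of B cells, at 2337 and 1793 CPM in members and 1576 and 2352 CPM in B cells. Dividing neutrophil precursors held S100a8 at 103622 and 97968 CPM, so its level in members was close to that of B cells and is not read as expression.

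Dividing monocyte precursors made up a larger share of the MYC library. They were 909 of 13251 kept barcodes in the control (6.86%, exact interval 6.44 to 7.30) and 1144 of 10543 in the MYC library (10.9%, 10.3 to 11.5), a difference of 3.99 percentage points (3.25 to 4.73). The whole monocyte gate, which is the rule without its Mki67 and Top2a condition, held 10.0% and 15.3% of kept barcodes. Within that gate the dividing share was 68.6% (66.0 to 71.0) of control and 70.8% (68.6 to 73.0) of MYC gate cells, and the interval of the difference included 0 (2.28 points, -1.10 to 5.68). This difference depended on the cells kept, and ran from 1.31 to 8.04 points over the alternatives. It was 8.04 points among cells with under 5% mitochondrial UMIs and 5.30 points with at least 4 Mki67 and Top2a UMIs. With every cell thinned to 5000 UMIs before the rule it was 55.3% and 59.5%, a difference of 4.20 points (0.33 to 8.08). Dividing neutrophil precursors (S100a8 and S100a9 at 5% or more, at most 3 monocyte UMIs) took 22.2% and 21.5% of kept barcodes. B cells numbered 1060 among control and 168 among MYC barcodes, and a share of barcodes depends on what else a library holds.

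**Figure D1:**
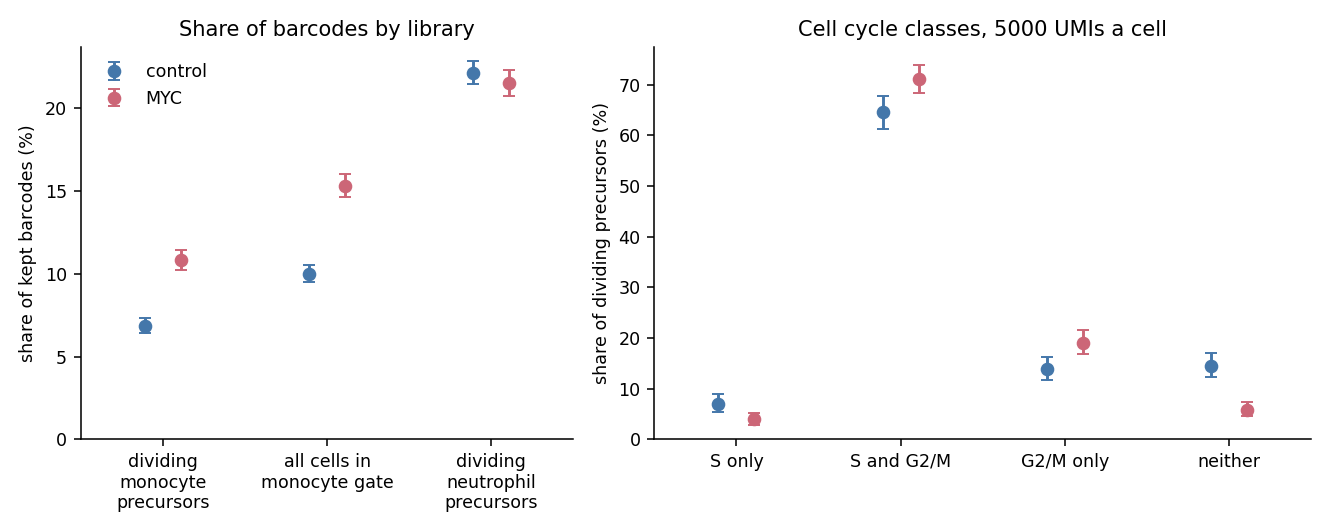
Left, share of kept barcodes (%) that were dividing monocyte precursors, that fell in the whole monocyte gate, or that were dividing neutrophil precursors, by library. Right, share of dividing monocyte precursors (%) in 4 cell cycle classes after thinning to 5000 UMIs a cell. Points are single libraries and bars are exact 95% intervals of counting error. The precursors take 6.86% of control and 10.9% of MYC barcodes, and the class with neither program holds 14.5% and 5.82%.

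Cell cycle classes were called from S phase and G2/M genes outside the rule. Each member with at least 5000 UMIs was thinned to that number, which left 887 control and 1100 MYC members and dropped 22 and 44. It was then scored by the share of UMIs from S phase genes (replication enzymes and helicases) and from G2/M genes (mitotic kinases, kinesins and cyclin B), without Mki67 and Top2a. A program was called present above the 95th percentile of non-dividing monocytes, which are the cells of the gate with 0 Mki67 and Top2a UMIs (248 and 271 cells, of which 215 and 241 were deep enough). Both programs were present in 64.6% of control and 71.2% of MYC members, and the G2/M program alone in 13.9% and 19.1% (5.22 points, 1.87 to 8.52). The S program alone was present in 6.99% and 3.91% (-3.08 points, -5.24 to -1.01). Neither was present in 14.5% (12.3 to 17.0) of control and 5.82% (4.51 to 7.37) of MYC members, a difference of -8.73 points (-11.5 to -5.99). Without thinning this last class held 13.9% and 5.77%. Among members with at least 4 Mki67 and Top2a UMIs (740 and 970 after thinning), an alternative chosen after the data were seen, it held 2.30% and 1.24%, and the interval of the difference included 0 (-1.06 points, -2.54 to 0.26). The G2/M class alone then differed by 2.66 points (-0.97 to 6.22) and the class with both programs by 2.44 points (-1.62 to 6.56), intervals that also included 0. The S class alone differed by -4.04 points (-6.27 to -1.97), so it was lower in the MYC library in both sets of members. The median cell drew 0.32% (control) and 0.30% (MYC) of its UMIs from S genes, and 1.08% and 1.28% from G2/M genes, against 0.06% and 0.06%, and 0.24% and 0.28%, in non-dividing monocytes. The classes are ranges of a score rather than cell types, and 3.27% of control and 3.45% of MYC members lay within 10% of the S threshold.

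**Figure D2:**
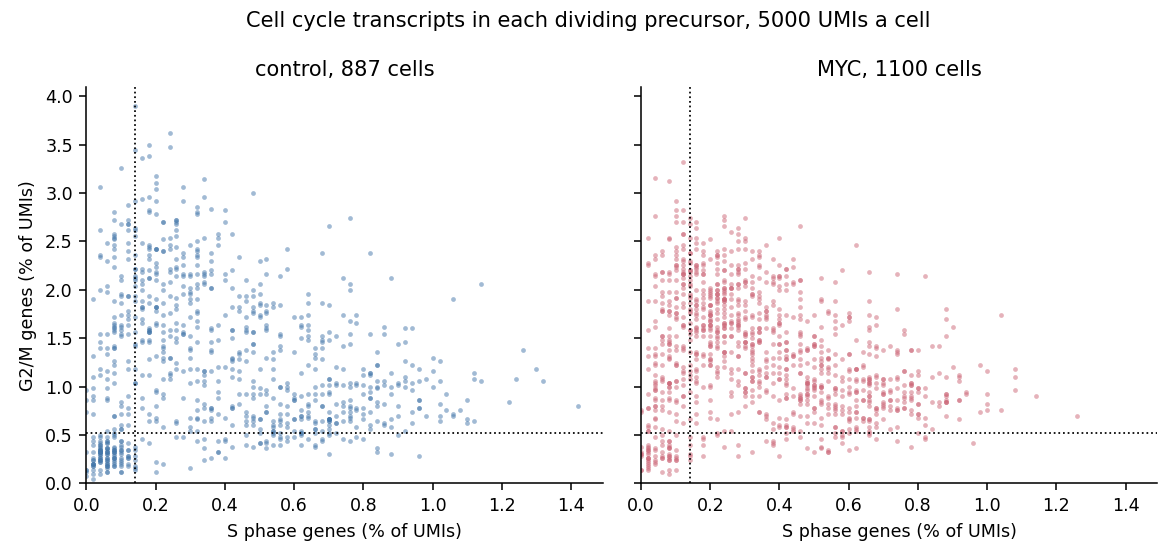
Each point is 1 dividing monocyte precursor thinned to 5000 UMIs, with the share of its UMIs from S phase genes (x axis, %) against that from G2/M genes (y axis, %). Dotted lines mark the 95th percentile of non-dividing monocytes, at 0.14% for S and 0.52% for G2/M genes. The lower left corner, with neither program, holds 129 of 887 control and 64 of 1100 MYC cells, and 17 of 740 and 12 of 970 with at least 4 Mki67 and Top2a UMIs.

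Across the transcriptome most genes stayed within 1.5-fold. Of 10128 genes with at least 100 UMIs over the members of both libraries, 436 (4.3%) were at least 1.5-fold higher in MYC members and 1181 (11.7%) were at least 1.5-fold lower, with 1 CPM added to each level. The median log2 ratio of MYC over control was -0.15, and a scaling by median-of-ratios moved it by 0.16. That scaling turned the split into 935 higher and 632 lower. Without the members that showed a sign of another lineage, an alternative chosen after the data were seen, 461 were higher and 1104 lower. List counts below are read against 4.3% and 11.7%.

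**Figure D3:**
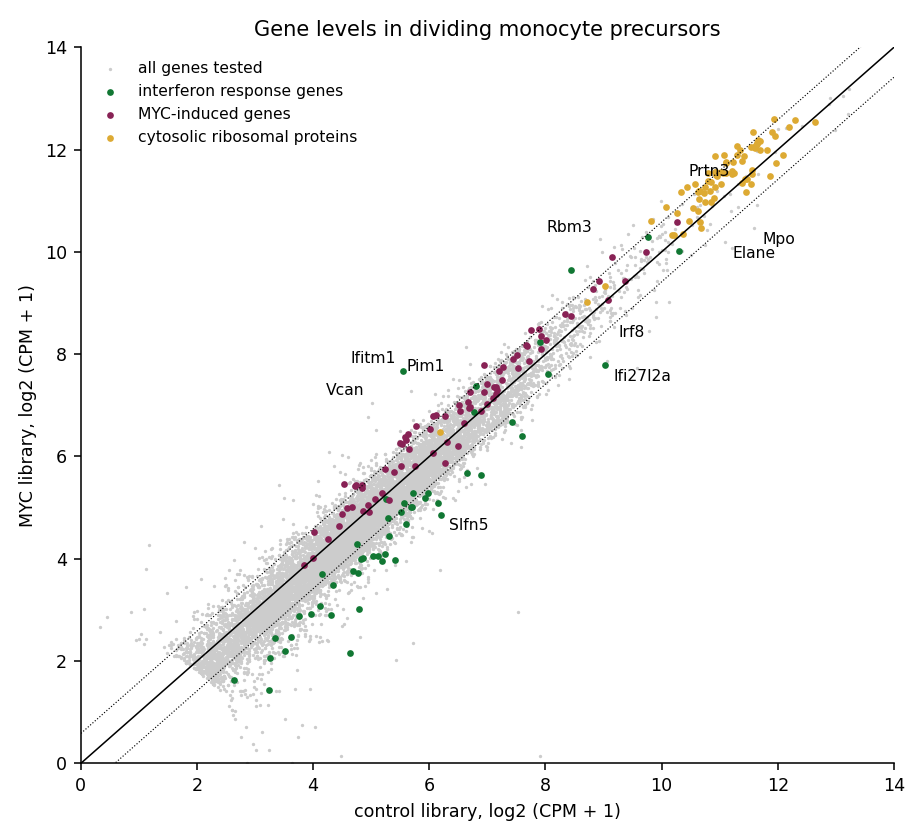
Each point is 1 of 10128 genes, with its level in control (x axis) and MYC (y axis) dividing monocyte precursors as log2 (CPM + 1). The solid line marks equal levels and the dotted lines 1.5-fold. Interferon response genes (green) lie mostly below the lines, apart from Ifitm1, Ifitm2 and a few others, MYC-induced genes (purple) lie mostly above equality, and ribosomal protein genes (gold) fill the upper end.

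Most interferon response genes were lower in MYC members, while those of the Ifitm family named here were higher. Of 50 measured, 36 were at least 1.5-fold lower and 2 at least 1.5-fold higher, with a median log2 ratio of -0.89 against -0.15 for all genes. Their summed level, to which the abundant Ifitm genes contribute, differed little, at 5543 and 5223 CPM. Stat2 (31.6 and 15.7 CPM) and Irf9 (59.8 and 35.4 CPM), which carry the type I interferon signal to the nucleus, were lower in MYC members, as was Irf7 (27.3 and 15.0 CPM), which amplifies type I interferon production. Among effectors, the mitochondrial protein gene Ifi27l2a stood at 522 and 220 CPM (log2 ratio -1.25, -1.30 to -1.20) and Slfn5 at 72.9 and 28.0 CPM (-1.38). The DNA-binding family member Ifi203 stood at 191 and 83.8 CPM (-1.19). The lowest ratio of the list belonged to Rsad2, the antiviral enzyme viperin, at 23.7 and 3.45 CPM (-2.78). Isg15, a ubiquitin-like modifier, stood at 33.7 and 15.7 CPM (-1.11), and Ifit1 at 8.41 and 1.70 CPM (-2.30).

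The 2 genes of the list at least 1.5-fold higher were Ifitm1 and Ifitm2, which encode transmembrane restriction factors, and Ifitm3, Ifitm6, Slfn2 and Bst2 were above 0 within 1.5-fold. Ifitm1 stood at 45.9 CPM (42.7 to 49.3) in control members and 203 CPM (197.2 to 209.5) in MYC members, the highest ratio of the genes named by rule (log2 ratio 2.15, 2.03 to 2.26). After thinning to 5000 UMIs, 10.3% of control and 32.5% of MYC members held an Ifitm1 UMI. Ifitm2 stood at 347 and 806 CPM (1.22), and Ifitm3 at 867 and 1256 CPM (0.53). In B cells Ifitm1 stood at 9.43 and 18.3 CPM, so most of its UMIs in members were above that background.

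The interferon difference was seen in non-dividing monocytes as well, where 41 of 50 genes were at least 1.5-fold lower (background 21.4%) and 2 higher (background 17.5%), with a median of -1.30. It was also present along the whole range of members ordered by the share of UMIs from the primary granule genes Mpo, Elane, Prtn3 and Ctsg. Among members these 4 genes themselves had log2 ratios of -1.13, -0.90, 0.01 and 0.37. The same share therefore need not mark the same stage in both libraries. In 4 bins of that share, cut at the quartiles of all 2053 members and taken from the lowest to the highest share, the list median was -0.85, -0.75, -0.83 and -0.73. Slfn5 was lower in the MYC library in each bin, at 196 and 77.7 CPM in the lowest and 8.12 and 4.32 CPM in the highest. At or below the pooled median share 36 of 50 genes were at least 1.5-fold lower and 2 higher (15.1% and 8.21% of all genes tested there). Above it 23 of 45 were lower and 4 higher (10.1% and 3.88%) with a median of -0.60 and a summed level of 3674 and 3990 CPM. These members came more from the third bin in the MYC library (334 cells, and 272 from the highest) than in the control (179 and 241). The bin medians cover 50 genes each and the one above the pooled median 45. Whether either accounts for the unlike medians was not tested. With members showing another lineage left out, the median of all members was -0.87. Dividing neutrophil precursors had 36 of 51 interferon genes at least 1.5-fold lower and 4 higher in the MYC library, against 20.2% and 3.92% of all genes tested there, with a summed level of 3342 and 4012 CPM, so the difference was not limited to monocyte precursors.

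Promoters of 2 interferon genes and 2 MYC-induced genes are shown because the lists stand apart in the direction of their values and hold different motifs. Each stretch is the 120 bases before the RefSeq gene start on the minus strand of GRCm38.p6, written 5′ to 3′ on that strand. Capitals mark the motif, which is the core of the interferon-stimulated response element in the first 2 (GAAA, any 2 bases, GAAA, or the reverse complement of this), and CACGTG (the canonical E-box, a palindrome) in the last 2. They were the first 2 genes of each list that passed 1.5-fold and held the motif in such a stretch, with no annotated exon anywhere in it. Interferon genes were ranked by level in control members and MYC-induced genes by level in MYC members. A single chromosome was not searched. The stretches lie at chr1:173942493-173942612, chr7:104465194-104465313, chr11:69921387-69921506 and chr11:93968026-93968145, and none overlaps an exon of the GENCODE annotation.
Ifi203: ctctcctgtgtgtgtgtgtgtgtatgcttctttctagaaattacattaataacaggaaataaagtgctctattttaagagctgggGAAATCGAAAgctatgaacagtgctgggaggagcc
Trim30a: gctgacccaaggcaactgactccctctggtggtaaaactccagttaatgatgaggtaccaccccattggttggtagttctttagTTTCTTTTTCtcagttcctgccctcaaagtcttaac
Eif5a: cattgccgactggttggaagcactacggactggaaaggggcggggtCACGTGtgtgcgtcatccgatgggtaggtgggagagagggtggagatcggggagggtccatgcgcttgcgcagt
Nme1: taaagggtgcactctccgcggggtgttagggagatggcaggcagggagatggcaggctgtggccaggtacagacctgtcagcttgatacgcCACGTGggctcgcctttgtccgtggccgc

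Windows from 250 bases before to 50 after the gene start were matched by symbol for 39 of the 50 interferon genes and 69 of the 78 MYC-induced genes. The interferon core was in 23 of the 39 (59.0%), among them 18 of the 28 matched genes that were at least 1.5-fold lower (64.3%). It was in 3.44% of all 32851 windows and in 4.02% of the 8087 matched genes tested here. The E-box was in 21 of the 69 MYC-induced genes (30.4%), among them 4 of the 15 matched genes that were at least 1.5-fold higher, in 7.15% of all windows and in 12.4% of matched genes tested. A match says only that these letters are in the window.

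Most MYC-induced genes stood higher in MYC members, the larger part of them within 1.5-fold. Of 78 measured, 16 were at least 1.5-fold higher and none lower, 71 had a ratio above 0, and the median was 0.36. The median was 0.57 among members with under 5% mitochondrial UMIs and 0.52 with median-of-ratios scaling. Slc7a5, the light chain of the large neutral amino acid transporter, stood at 22.05 and 43.2 CPM (log2 ratio 0.97), and its heavy chain Slc3a2 at 48.3 and 85.8 CPM (0.83). Eif5a, a translation elongation factor, stood at 567 and 957 CPM (0.75, 0.72 to 0.79), and the nucleoside diphosphate kinase Nme1 at 235 and 358 CPM (0.61). Nhp2, a core protein of small nucleolar ribonucleoproteins, stood at 121 and 220 CPM (0.86), and the ribosome assembly factor Mrto4 at 53.5 and 95.3 CPM (0.83). The abundant nucleolar genes differed less, with Ncl at 849 and 1019 CPM (0.26) and Npm1 at 1222 and 1544 CPM (0.34). Odc1, the first enzyme of polyamine synthesis, went the other way at 75.9 and 57.6 CPM (-0.40).

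The ratio of this list was larger in non-dividing monocytes, where 42 of 57 measured genes were at least 1.5-fold higher (17.5% of all genes there), 1 was lower (21.4%) and the median was 0.75. These cells started lower, with a summed level of 4513 CPM (control) and 8034 CPM (MYC), against 11795 and 15151 CPM in members. The difference between the 2 groups of cells was not tested. Within members the median was 0.46, 0.38, 0.30 and 0.38 from the lowest to the highest granule bin.

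A feature named MYC, separate from the mouse gene Myc, was rarely captured, and what sequence it counts is not given in the sources used here. It had 0 UMIs in the 909 control members, which allows a UMI in up to 0.330% of cells (3 counts) and does not limit the cells that express it, and 23 UMIs in 22 of 1144 MYC members (1.92%, 1.21 to 2.90), or 1.12 CPM (0.71 to 1.68). The mouse gene Myc stood at 42.6 and 35.6 CPM in members (log2 ratio -0.26, -0.41 to -0.11), and this ratio turned to 0.33 in members with under 5% mitochondrial UMIs. In the list of the MYC network, 2 of 11 genes were at least 1.5-fold lower and none higher. Mxd4 (46.4 and 26.5 CPM) and Mxd1 (31.5 and 20.03 CPM), which compete with MYC for MAX, were those 2, and Max itself stood at 50.5 and 47.1 CPM.

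Ribosomal protein genes and nuclear genes of oxidative phosphorylation were mostly higher in MYC members, beside a background of 4.3% of all genes at least 1.5-fold higher. Of 80 cytosolic ribosomal protein genes, 18 were at least 1.5-fold higher and none lower, with a median of 0.43, and their sum was 188435 CPM in control and 242693 CPM in MYC members. Since CPM is a share of a fixed total, this takes a share from all other genes. The median was 0.83, 0.68, 0.37 and 0.23 from the lowest to the highest granule bin. It was 1.02 in non-dividing monocytes, with 65 of 80 at least 1.5-fold higher, against 17.5% of all genes there. Nuclear genes of oxidative phosphorylation had a median of 0.31, with 63 of 74 above 0, 5 at least 1.5-fold higher and none lower. Atp5g1, a subunit of the membrane ring of ATP synthase, stood at 292 and 538 CPM (log2 ratio 0.88), and Ndufa12 of complex I at 122 and 196 CPM (0.68), while Ndufa3 stood at 299 and 219 CPM (-0.45). Slc25a4, the ADP/ATP exchanger of the inner mitochondrial membrane, stood at 103 and 223 CPM (1.12, 1.04 to 1.20). Among nucleotide synthesis enzymes 4 of 33 were at least 1.5-fold higher and 1 lower. The mitochondrial folate enzymes Shmt2 (46.7 and 82.1 CPM) and Mthfd2 (47.2 and 79.4 CPM) were higher, and the salvage kinase Dck (68.8 and 38.0 CPM) was lower.

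**Figure D4:**
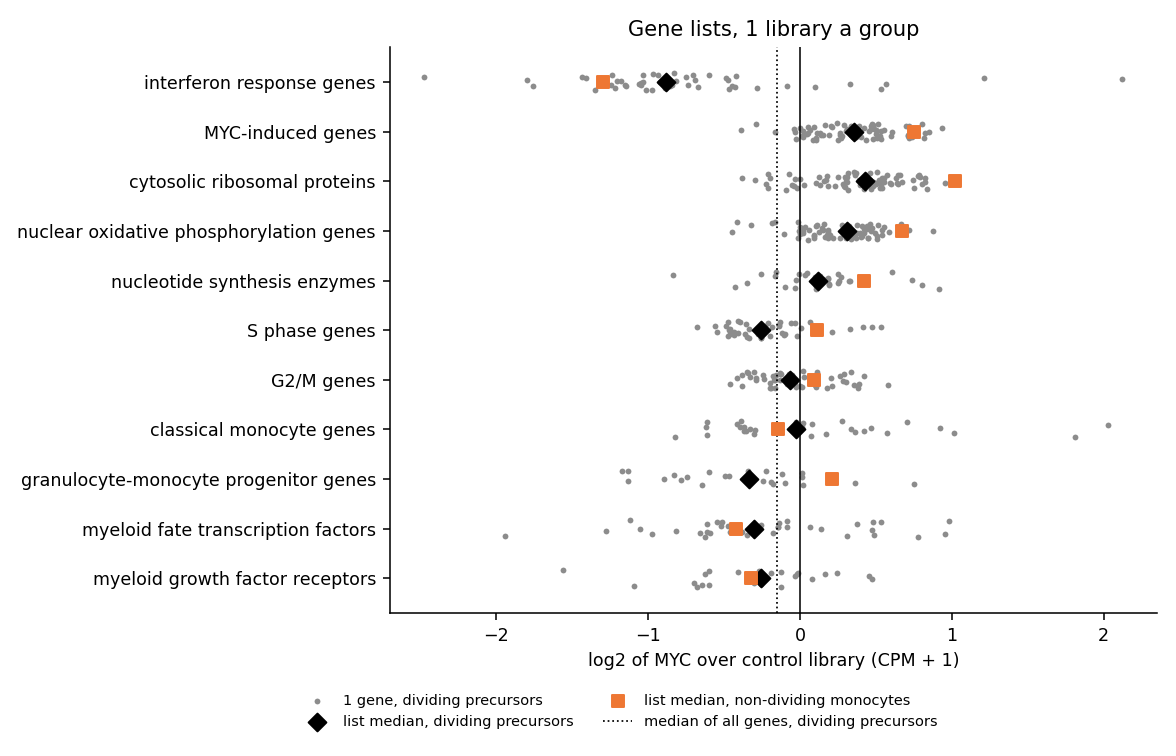
Log2 ratio of MYC over control (x axis, with 1 CPM added) for each measured gene of 11 lists in dividing monocyte precursors (grey points). Black diamonds are list medians in the precursors and orange squares those in non-dividing monocytes, and the dotted line is the median of all genes (-0.15). Interferon genes centre at -0.89 and -1.30 and ribosomal protein genes at 0.43 and 1.02.

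Monocyte identity genes were split. Of 33 classical monocyte genes outside the rule, 5 were at least 1.5-fold higher and 4 lower, with a median of -0.02. The proteoglycan Vcan stood at 31.5 CPM (28.8 to 34.3) in control members and 131 CPM (126.4 to 136.3) in MYC members (log2 ratio 2.06, 1.92 to 2.20), and after thinning 12.97% and 35% of members held a UMI of it. Ms4a6d stood at 18.3 and 66.6 CPM (1.87), the galectin Lgals3 at 730 and 1478 CPM (1.02), and the endotoxin co-receptor Cd14 at 5.29 and 10.9 CPM (1.05). On the lower side, the pore-forming protein gene Mpeg1 stood at 435 and 245 CPM (-0.83), Klf4 at 286 and 187 CPM (-0.61) and Zeb2, a factor of the monocyte and macrophage path, at 667 and 437 CPM (-0.61). The lysozyme gene Lyz2 stood at 4516 and 5467 CPM (0.28) and Cst3 at 1070 and 1046 CPM (-0.03).

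Several fate regulators were lower in MYC members. Among 36 transcription factors, 11 were at least 1.5-fold lower and 3 higher, with a median of -0.30. Irf8 stood at 554 CPM in control members and 398 CPM in the MYC library (log2 ratio -0.48, -0.52 to -0.43), which did not reach 1.5-fold. In single cells its median was 4.24 and 2.93 UMIs per 10000, and 77.5% and 72.5% of thinned members held a UMI. Myb, which maintains progenitors, stood at 190 and 90.7 CPM (-1.06), Gfi1, a transcriptional repressor that favours the granulocyte path, at 18.7 and 7.15 CPM (-1.39), and the granulocyte factor Cebpe at 35.6 and 22.2 CPM (-0.68). Spi1, encoding PU.1, stood at 305 and 379 CPM (0.31) and Cebpb at 324 and 450 CPM (0.47). The higher ones included Klf2 (74.0 and 144 CPM) and Nr4a1 (4.36 and 8.17 CPM).

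Receptors for growth factors and cytokines were lower or close to equal. Of 25 outside the rule, 8 were at least 1.5-fold lower and none higher, with a median of -0.26. Csf3r, the G-CSF receptor, stood at 76.6 and 35.3 CPM (log2 ratio -1.12), Il6ra at 159 and 103 CPM (-0.63), Kit at 37.9 and 24.7 CPM (-0.62), and the GM-CSF receptor chain Csf2ra at 214 and 197 CPM (-0.12). Csf3r also stands in the list of neutrophil granule genes, of which 4 of 20 were at least 1.5-fold lower and 1 higher. Whether free RNA adds to its level was not tested. Among 25 trafficking and adhesion genes 7 were lower and 1 higher. Cxcr4, which holds cells in the marrow, stood at 131 and 84.0 CPM (-0.64), the integrin chain Itgal at 99.1 and 52.1 CPM (-0.93) and Itga4 at 189 and 130 CPM (-0.54), while Ccr2, part of the rule, stood at 656 and 721 CPM.

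Progenitor and granule genes did not move as a block. Of 24 granulocyte-monocyte progenitor genes, 9 were at least 1.5-fold lower and 1 higher, with a median of -0.34, and this median was 0.0047 with members under 5% mitochondrial UMIs. Mpo, encoding myeloperoxidase, stood at 3096 CPM (3069 to 3123) in control members and 1414 CPM (1398 to 1430) in MYC members, a log2 ratio of -1.13. Elane stood at 2178 and 1169 CPM (-0.90). Among members with under 5% mitochondrial UMIs these ratios were -0.39 for Mpo and -0.15 for Elane, both within 1.5-fold. Prtn3 stood at 2552 and 2575 CPM (0.01), and Ctsg at 988 and 1273 CPM (0.37). Most members held little of any of them: the single-cell median of Mpo was 1.14 and 0.79 UMIs per 10000, with upper quartiles of 25.8 and 8.07 and highest cells of 169 and 129. Prtn3 had medians of 4.47 and 8.96 and upper quartiles of 26.4 and 28.9. Fcnb, a ficolin of early granulocytes, stood at 89.6 and 39.2 CPM (-1.19), but at 1717 and 987 CPM in dividing neutrophil precursors, and its ratio in members was -0.79 without those showing another lineage.

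The primary granule share ordered the members along a continuous range. Its median was 0.09% of UMIs for control and 0.14% for MYC members, with quartiles of 0.02% and 0.73% and of 0.05% and 0.61%. At least 1% was reached by 193 control (21.2%, 18.6 to 24.0) and 185 MYC members (16.2%, 14.1 to 18.4). The lowest bin held 34.3% of control and 17.7% of MYC members, so control members lay more at both ends and MYC members more in the middle. Bins were cut on these cells, so gene levels along them are a description. Mpo and Elane were lower and Ctsg higher in MYC members, so equal shares need not mean equal stages in the 2 libraries. Median depth was 11075 UMIs in the lowest and 26034 UMIs in the highest bin of control members, and 12485 and 25005.5 UMIs in those of MYC members.

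Members above the pooled median share and those at or below it were compared within each library. At least 2-fold higher above it in each library were 547 of 10128 genes (5.401%), and 380 (3.75%) were at least 2-fold higher at or below it. Ms4a3, a marker of granulocyte-monocyte progenitors, stood at 7.47 CPM at or below the median and 366 CPM above it in the control, and at 11.05 and 312 CPM in the MYC library. Myb went from 30.2 to 300 CPM and from 13.98 to 135 CPM, and the kinase Cdk6 from 45.6 to 322 CPM and from 27.7 to 207 CPM. Of the MYC-induced list, 38 of 78 genes were at least 2-fold higher above the median in both libraries and none at or below it, for example Npm1 at 603 and 1650 CPM in the control. Interferon genes went the other way, with 26 of 50 at least 2-fold higher at or below the median and 1, Ifitm1, above it. Vcan, Lyz2 and S100a4 were also higher at or below it, Lyz2 at 8421 and 1817 CPM in control members and 10340 and 2663 CPM in the MYC library. Irf8 was highest in the upper bins, at 319, 545, 676 and 646 CPM from the lowest to the highest bin of control members and 220, 267, 467 and 497 CPM in those of MYC members. The MYC library lay below the control in all 4 bins for Irf8, and for Klf4 (341, 463, 371 and 135 CPM against 186, 238, 242 and 103 CPM). In non-dividing monocytes Irf8 was close to equal, at 232.7 and 233.2 CPM (log2 ratio 0.003, -0.17 to 0.18).

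**Figure D5:**
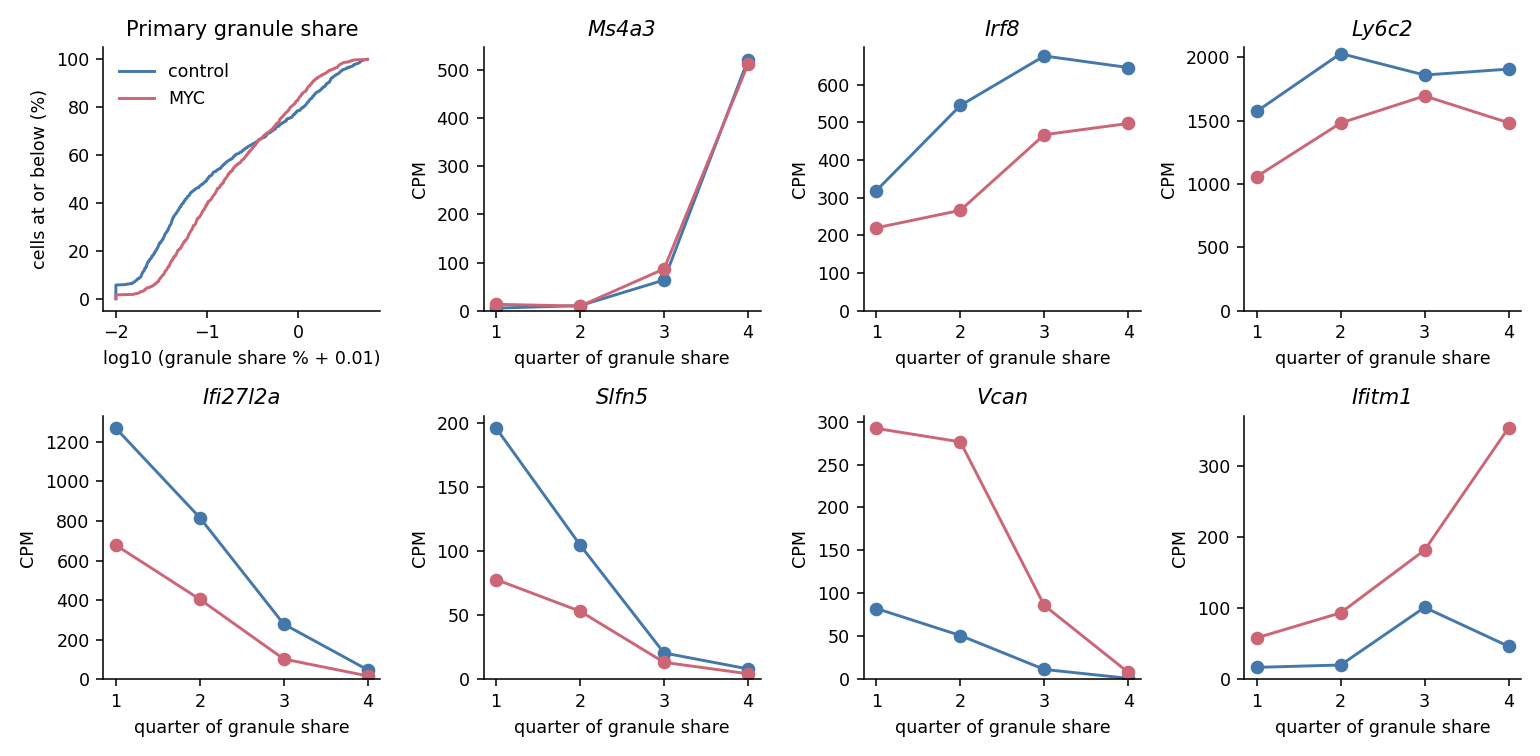
Top left, cumulative share of precursors (%) with at least 5000 UMIs, by log10 of the primary granule share plus 0.01. Other panels give the level (CPM) of 7 genes in the 4 bins of that share, from lowest (1) to highest (4), summed over the cells of each library, with no replicates. Ms4a3 appears in the highest bin at 521 CPM in control members and 511 CPM in the MYC library, while Slfn5 and Ifi27l2a are lower and Vcan and Ifitm1 higher in the MYC library in every bin.

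Genes of the highest-share end included those of basophils. Of 8 measured basophil and mast cell markers, 6 were at least 1.5-fold higher and 1 lower in MYC members, with a median of 0.61. Prss34 stood at 244 and 491 CPM, Mcpt8 at 273 and 481 CPM and Cpa3 at 42.8 and 74.7 CPM, while Hdc, the histamine-forming enzyme, stood at 38.4 and 20.4 CPM. At or below the median granule share Prss34 stood at 84.3 and 32.7 CPM, the reverse order, and the list median there was -1.02. The members with at least 10 such UMIs numbered 21 and 39. With members showing any sign of another lineage left out, fewer than 5 of these markers passed the count minimum and no list median was computed.

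Erythroid, T and NK and B lineage markers were mostly lower in MYC members, and markers of other cell types were mixed. Of 15 erythroid markers 13 were at least 1.5-fold lower and 1 higher, from a summed 5523 CPM to 2381 CPM, and the median of -1.19 was -0.69 without members of another lineage and -0.15 without the barcodes of highest doublet score. All 7 measured T and NK markers were lower. The sum over all 17 listed went from 266 CPM to 84.9 CPM, of which Nkg7 made up 168 and 76.1 CPM. Of 8 B lineage markers 6 were lower, and the sum over all 14 listed went from 2523 CPM to 1800 CPM. The B lineage median of -1.64 ran from -2.08 to -0.20 over the alternatives. Neutrophil granule genes were lower in 4 of 20 and higher in 1, dendritic markers lower in 4 of 11, macrophage markers lower in 3 of 6 and higher in 1, and nonclassical monocyte markers lower in 2 of 7 and higher in 1. Summed levels were 3015 and 3309 CPM for the neutrophil and 158 and 226 CPM for the macrophage markers. Cd3g had 93 UMIs over all control and 9 over all MYC members. The erythroid transporter Slc4a1 (85.9 and 34.6 CPM) and the carbonic anhydrase Car2 (191 and 72.3 CPM) were among the 12 lowest genes named by rule. In B cells they stood at 86.6 and 17.6 CPM and at 165 and 47.4 CPM, and their log2 ratios in members were -0.03 and -0.33 without the highest doublet scores, so neither is read as a difference of the precursors. Nkg7 (168 and 76.1 CPM) stands in both the NK and the progenitor list, and it stood at 4.71 and 6.09 CPM in B cells. Its log2 ratio in members was -1.14 and ran from -2.90 to -0.46 over the alternatives, so it was not always past 1.5-fold.

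The remaining named genes belonged to no list, apart from the macrophage marker Apoe. Rbm3, a cold-inducible RNA-binding protein, stood at 490 CPM (479.6 to 501.3) in control members and 1211 CPM (1196 to 1226) in MYC members (log2 ratio 1.30). Its single-cell quartiles were 3.26 and 6.30 UMIs per 10000 for control and 8.60 and 14.6 for MYC cells, so the middle ranges of cells did not overlap. Rbm3 was also higher in MYC B cells (295 and 519 CPM) and dividing neutrophil precursors (306 and 790 CPM). Eif4ebp1, the repressor of cap-dependent translation, stood at 67.7 and 147 CPM (1.12), and the kinase Pim1 at 83.8 and 182 CPM (1.12). Gngt2, a G protein gamma subunit of monocytes, stood at 30.0 and 108 CPM (1.85), Apoe at 50.5 and 155 CPM (1.62; 80.7 and 92.8 CPM in B cells), Wfdc17 at 98.2 and 283 CPM (1.53) and the lectin Cd302 at 32.8 and 90.3 CPM (1.46). AY036118, a transcript of the ribosomal RNA repeat, stood at 276 and 568 CPM (1.04), and at 498 and 1004 CPM in B cells. Tmcc1, a protein of the endoplasmic reticulum, had the lowest ratio of the 24 genes named by rule, at 124 and 43.3 CPM (-1.52). Clec2d, a C-type lectin, stood at 104 and 42.8 CPM (-1.28), and Rnf213, a large E3 ligase, at 83.8 and 35.7 CPM (-1.23). Tmcc1 was lower in MYC dividing neutrophil precursors (266 and 69.4 CPM) and B cells (65.6 and 31.1 CPM) too.

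Alarmins and their receptors differed by gene. Alarmins are proteins released by stressed cells that alert the immune system. Of 17 alarmin and S100 genes outside the rule, 3 were at least 1.5-fold higher and none lower, with a median of 0.33. S100a4 stood at 810 and 1251 CPM (log2 ratio 0.63) and Lgals1 at 846 and 1344 CPM (0.67), beside Lgals3 above, while Hmgb1 stood at 1206 and 1393 CPM (0.21) and S100a6 at 1069 and 1345 CPM (0.33). Of 21 receptor and inflammasome genes, the adaptor Pycard (261 and 471 CPM) and Cd14 were at least 1.5-fold higher and Il1b (14.3 and 4.62 CPM) lower.

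Immediate early and heat shock genes, which also respond to tissue dissociation, differed in both directions. Of 26 tested, 5 were at least 1.5-fold higher and 4 lower, with a median of 0.12 and a summed level of 3556 CPM in control and 3694 CPM in MYC members. The 5 higher genes were Klf2 (74.0 and 144 CPM), Junb (79.4 and 127 CPM), Ier3 (6.04 and 19.1 CPM), Nr4a1 (4.36 and 8.17 CPM) and Socs3 (1.18 and 12.98 CPM), which encode transcription factors and feedback regulators of signaling. The 4 lower genes were the AP-1 factor Fosl2 (56.3 and 26.7 CPM) and the heat shock genes Hsph1 (30.3 and 17.0 CPM), Hspa1a (6.54 and 1.51 CPM) and Hspa1b (7.54 and 1.60 CPM). Fos itself stood at 87.8 and 104 CPM (log2 ratio 0.24). The part of sample handling in these differences was not tested.

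Few replication genes passed 1.5-fold, and death genes were split. Of 45 S phase genes, 1 was at least 1.5-fold lower and none higher, with a median of -0.26, near the -0.15 of all genes. Dtl, a replication-licensing ligase subunit, was that gene (62.3 and 38.5 CPM), and Pcna stood at 335 and 248 CPM. None of 55 G2/M genes passed 1.5-fold in either direction, with a median of -0.07, which median-of-ratios scaling turned to 0.086. The cyclin kinase inhibitors Cdkn2d (90.3 and 180 CPM) and Cdkn1a (22.4 and 37.8 CPM) were higher, and the kinase Cdk2 (46.8 and 28.4 CPM) was lower. Of 21 p53 and survival genes 6 were higher and 4 lower. The pro-apoptotic genes Bax (78.8 and 156 CPM), Bbc3 (7.85 and 14.6 CPM) and Pmaip1 (3.55 and 7.20 CPM) were higher, and the anti-apoptotic Bcl2 (65.7 and 34.6 CPM) and Bcl2l1 (14.3 and 7.24 CPM) and the p53 target Trp53inp1 (16.7 and 4.23 CPM) were lower.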

How the data were processed

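Bone marrow cells of 2 mouse libraries were measured with a droplet-based 3′ kit, 1 library a group. UMI counts per gene and barcode were deposited by the authors. The file headers name Cell Ranger 6.0.0, and the submitters' processing notes name GRCm38 and Seurat, with no role or order. How barcodes were called as cells is not given in the sources used here. Counts were used as deposited, for 32286 features, and kept barcodes held a median of 6704 (control) and 7570 (MYC) UMIs. Python 3.11.15 and scipy 1.17.1 gave the sums, CPM, exact Poisson and Clopper-Pearson intervals, exact conditional intervals of ratios and Newcombe intervals of differences, all at 95%. Named genes were the 12 highest and 12 lowest log2 ratios of genes that averaged 50 CPM or more over the libraries and had an interval excluding equality, without rule, haemoglobin, sex-linked, immunoglobulin, T cell receptor, mitochondrial and unnamed genes, besides genes of the lists and a few named whatever their value. Members and lists were chosen with earlier results of these data known. The rule called no doublets. No cell type was clustered: B cells had at least 4 B cell UMIs, at most 1 monocyte UMI, 0 T cell UMIs, under 5% S100a8 and S100a9 and under 1% primary granule UMIs. Motifs and sequences came from RefSeq promoter windows (GRCm38.p6). Alternatives changed the cell rule, scaling, depth, pseudocount and gene filter.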

Additional observations from a re-analysis of the deposited data

Results flagged for a closer look

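By summed level, Mpo and Myc had ratios of opposite direction in dividing monocyte precursors and in non-dividing monocytes of the same libraries. Mpo had a log2 ratio of MYC over control of -1.13 (-1.15 to -1.11) in the precursors and 0.29 (0.10 to 0.47) in non-dividing monocytes, where it stood at 197 and 240 CPM. The share of non-dividing monocytes with an Mpo UMI went the other way, at 40.3% of control and 32.1% of MYC cells, so no direction is read there. B cells held 61.0 and 40.6 CPM of Mpo, with a UMI in 38.6% and 30.4% of cells. The primary granule genes together made up 0.017% and 0.034% of the UMIs of the median non-dividing monocyte, and 2.17% and 2.78% of the highest. Among precursors with under 5% mitochondrial UMIs the Mpo ratio was -0.39 and the Myc ratio 0.33. Myc had a ratio of -0.26 (-0.41 to -0.11) in the precursors and 0.84 (0.10 to 1.62) in non-dividing monocytes, at 10.8 and 19.4 CPM. Each is 1 library against 1, the intervals cover counting error only, and the difference between the 2 kinds of cell was not tested.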

How the results depend on the processing

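Across 85 results and 21 settings, 998 of 1373 values stayed within the spread allowed, 370 moved and 5 were counted as reversed. A change of sign was not counted so for a single gene within 1.5-fold, or inside an interval that included 0. Under every setting 66 of 85 results kept their sign, among them 22 of 31 list medians and 36 of 46 single genes. The 24 named genes, which were chosen for extreme ratios, all kept theirs. The precursors' share stayed 3.73 to 4.70 points higher in the MYC library. No paired analysis was possible because each group was 1 library. The planned doublet removal at Scrublet's automatic threshold was not run, since it called 670 control and 0 MYC barcodes. In its place the highest scores (1405 and 889 barcodes, 99 and 59 members) were left out, an alternative added after the data were seen, as were the one without signs of another lineage and the one with equal weight to 4 granule bins. The cause of the changes was not tested.

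With under 5% mitochondrial UMIs the dividing share differed by 8.04 points, 766 genes were at least 1.5-fold higher, and the log2 medians were 0.0047 for progenitor, -0.59 for trafficking, 0.57 for MYC-induced, -1.20 for interferon, 0.40 for oxidative phosphorylation, 0.34 for nucleotide, -0.40 for neutrophil granule, -1.76 for erythroid and 0.66 for ribosomal protein genes. Median-of-ratios scaling gave 935 higher and 632 lower genes and medians of -0.17 for trafficking, -0.10 for S phase, 0.086 for G2/M, 0.52 for MYC-induced, 0.12 for alarmin receptor, 0.47 for oxidative phosphorylation, 0.28 for nucleotide and 0.59 for ribosomal protein genes. At or below the median granule share 687 genes were higher, with medians of 0.39 for oxidative phosphorylation, 0.24 for nucleotide, -1.02 for basophil, -1.001 for stem and 0.79 for ribosomal protein genes. Above it the medians were -0.21 for trafficking, -0.60 for interferon, -1.64 for erythroid and 0.25 for ribosomal protein genes, and Ace had 0.54. A pseudocount of 5 CPM gave 283 higher and 638 lower genes and -1.09 for T and NK markers, and a minimum of 500 UMIs a gene gave 609 lower genes. Thinning before the rule gave 645 lower genes, 0.49 for MYC-induced, -0.37 for erythroid and 0.54 for ribosomal protein genes. Erythroid markers had -1.45 with at least 8 monocyte UMIs, -0.66 as a mean over cells (ribosomal protein genes 0.50), -0.15 without the highest doublet scores (basophil markers 1.08) and -0.69 without signs of another lineage. With at least 4 Mki67 and Top2a UMIs, also chosen after the data were seen for this result, the class with neither cell cycle program differed by -1.06 points. Equal weight to the bins gave 0.53 for ribosomal protein genes.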

Other observations

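Several genes known from amino acid supply and the integrated stress response are given here, all chosen after their values were seen, as a description of these 2 libraries. No list of such genes was counted. Atf4, the transcription factor at the centre of that response, stood at 107 CPM in control and 175 CPM in MYC members, with a log2 ratio of 0.70 (0.62 to 0.79). Asns, which makes asparagine, stood at 9.65 and 42.5 CPM (2.14, 1.89 to 2.40), and 11.2% of control and 35.1% of MYC members held a UMI of it before thinning. Atf5 stood at 7.60 and 23.9 CPM (1.65), Nupr1 at 23.2 and 62.3 CPM (1.42), Ddit3 at 11.02 and 20.03 CPM (0.86), and Phgdh, the first enzyme of serine synthesis, at 123 and 188 CPM (0.61). Trib3 had 4 UMIs over all control members and 110 over all MYC members. Not all genes linked to this response were higher: Sesn2 stood at 8.28 and 8.22 CPM and the cystine transporter Slc7a11 at 3.55 and 3.70 CPM.

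Socs3, a feedback inhibitor of cytokine receptors that use STAT3, stood at 1.18 CPM in control and 12.98 CPM in MYC members (log2 ratio 3.46, 2.78 to 4.21), and Saa3, an acute phase protein, at 1.25 and 18.2 CPM (3.87). Both were chosen after their values were seen, and Socs3 belongs to the list of dissociation stress and immediate early genes, of which it had the highest ratio. After thinning, 0.79% of control and 6.09% of MYC members held a Socs3 UMI.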
